A study of Mus musculus with 13 samples.

Results

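Cultured mouse embryonic fibroblasts (MEF) were set against cultured tail-tip fibroblasts (TTF), both lacking p19Arf, an Ink4 locus product that activates p53. The comparison used 4 of the 13 one-colour Agilent microarrays of a study on turning fibroblasts into induced hepatocyte-like cells (iHep) with liver transcription factors. They were chosen by their titles: 1 array is labelled p19Arf-null MEF and 3 are labelled p19Arf-null TTF. All 4 cultures are labelled p19Arf-null and C57BL/6-129, were grown in DMEM with 10% FBS and were sampled after 42 days in culture; none is labelled as transduced. The other 9 arrays, from iHep, cultured hepatocytes and 1 transduced mixed culture, entered no comparison between groups. The labels give neither the embryo's age nor the part of it that was cultured, and do not say whether the TTF arrays came from separate animals or cultures. With 1 MEF array there was no replicate on that side, so no test was made and each difference describes these arrays only.

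Fibroblasts make collagen and other matrix proteins in most organs, and those grown from different body sites keep different sets of active developmental genes. Hox genes lie in 4 clusters in which a gene's place corresponds to where along the body axis it acts, from anterior to posterior. A whole embryo yields mesenchyme of many organs and body levels, whereas the tail tip is the hindmost part of the body and its fibroblasts come mainly from skin and other connective tissue.

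Levels are log2 intensities relative to the 75th percentile of the same array, averaged over the features (array spots) of a gene, so 0 is the 75th percentile and a difference of 2 is a 4-fold ratio. Features of a gene on the same array are not independent measurements, and whether some of them repeat the same probe was not analysed. TTF values are given in the order TTF 1, TTF 2 and TTF 3, and differences are MEF minus the TTF mean. A gene was above the limit of measurement on an array when at least 1 of its features exceeded 3 times the local floor, the lowest signal among its neighbours in the table. After X- and Y-linked genes were left out, 16419 of 18277 genes were above the limit on the MEF array or on at least 2 TTF arrays, and these are called measured. A measured gene was counted higher when MEF lay above all 3 TTF arrays and at least 2 above their mean, and lower in the mirror case.

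TTF 1 stood apart from the other TTF arrays. Over features with an intensity above 256 on all 4 arrays, centred on their median, the median absolute log2 difference was 0.45 between TTF 1 and TTF 2 and 0.42 between TTF 1 and TTF 3, but 0.12 between TTF 2 and TTF 3. Against MEF it was 0.31 for TTF 1, 0.41 for TTF 2 and 0.40 for TTF 3, so by this measure TTF 1 was nearer to MEF than to the other TTF arrays. By rank correlation across the measured genes, which are not independent replicates, TTF 1 was nearer to TTF 2 and TTF 3 (0.96 with each) than to MEF (0.95). The share of features above the limit was 81.0% on the MEF array and 75.9% to 80.4% on the TTF arrays. Counts that leaving out a TTF array moved by more than 1.5 times are given beside the results they touch.

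Of the 16419 measured genes, 722 (4.4%) were counted higher and 361 (2.2%) lower in MEF. The median difference over all measured genes was -0.03, and the median SD among the 3 TTF arrays was 0.35. Among the genes counted higher, 80 were under the limit on every TTF array, and among those counted lower, 72 were under it on the MEF array; their folds are lower bounds. TTF 1 was the array nearest to MEF for 525 of the 722 genes counted higher and for 193 of the 361 counted lower. It was also nearest for 2362 of the 3876 genes at which MEF lay above all TTF arrays by any amount. Where the distance was taken from the nearest TTF array instead of the mean, 467 genes lay at least 2 above and 189 at least 2 below. Without TTF 1, 924 genes were counted higher and 454 lower.

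**Figure D1:**
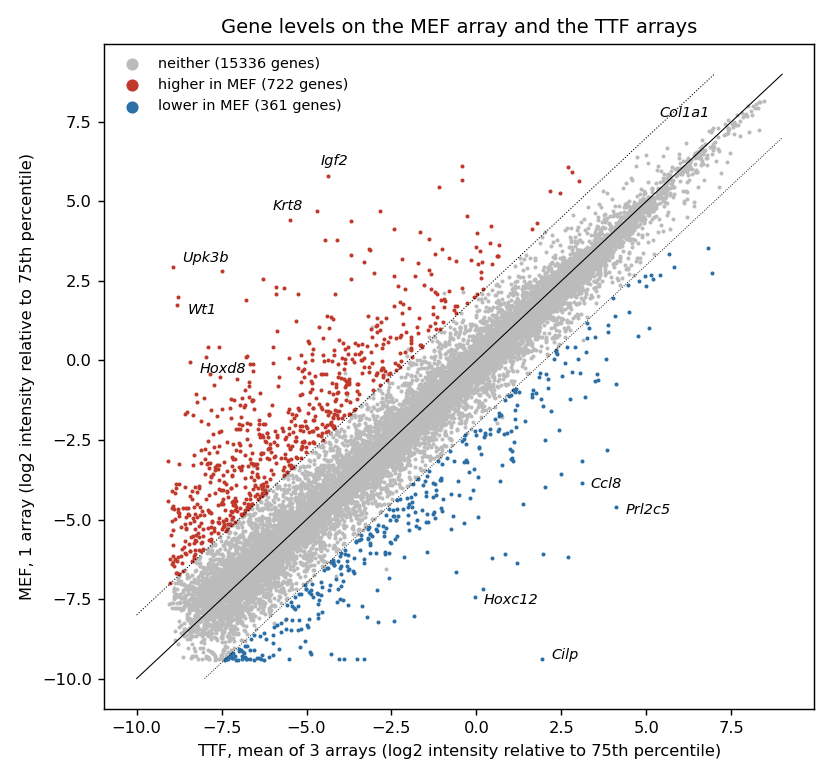
Level of each measured gene on the MEF array (vertical) against its mean over the 3 TTF arrays (horizontal), both in log2 units with the array's own 75th percentile at 0. The solid line marks equal levels and the dotted lines a difference of 2. The 722 genes counted higher (red) include Upk3b, Wt1 and Igf2, the 361 counted lower (blue) include Cilp and Prl2c5, and Col1a1 lies near the line of equality.

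The defining fibroblast genes were present in both kinds of culture, some at similar levels and others lower in MEF. Col1a1, which encodes the main chain of type I collagen, had a level of 7.43 on the MEF array, against 7.57, 7.16 and 7.21 on the TTF arrays, a difference of 0.12. Col1a2 differed by -0.22, Col3a1 by 0.06 and the PDGF receptor gene Pdgfrb by -0.01, and all 3 lay within the TTF range. Vimentin (Vim, difference -1.10), Thy1 (-1.13) and Pdgfra (-1.39) were below all TTF arrays without reaching the threshold. Of 18 measured genes of a fibroblast identity list, 9 lay below all TTF arrays (30.6% of all measured genes did), with a median difference of -0.39. The list's summed level on a linear scale was 311 in MEF and 337 to 423 in TTF. Among its members, Fap (difference 3.33) and Dpp4 (2.54), both cell-surface peptidases, were counted higher, and the calcium-binding S100a4 (-2.54) and Pi16 (-2.39) lower. Without TTF 1 the list had 1 gene counted lower, since Pi16 then differed by -1.04. Cdkn2a, whose locus carries the p19Arf deletion, had a level of 1.63 in MEF, against 2.32, 1.60 and 1.72 in TTF, and which transcripts its features detect was not analysed here.

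The Hox genes split by position along the cluster. Of 36 measured members, 12 (33.3%) were counted higher and 6 (16.7%) lower in MEF, with a median difference of 0.99. Among the anterior members, paralogue groups 1 to 4, 6 of 10 were counted higher and 0 lower. Among the central members, groups 5 to 8, it was 4 higher and 0 lower of 11. Among the posterior members, groups 9 to 13, it was 2 higher and 6 lower of 15, and both that were higher belonged to the Hoxd cluster.

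The posterior genes counted lower came from the Hoxa, Hoxb and Hoxc clusters. Hoxb13, the hindmost Hoxb gene, active in the tail bud of the mouse embryo, had a level of -6.09 on the MEF array, against 2.70, -0.14 and -0.02 on the TTF arrays, a difference of -6.94. Hoxc12 was at -7.43 in MEF and at 0.91, -0.50 and -0.57 in TTF, a difference of -7.38. For both genes the MEF array lay far below the TTF range, and TTF 1 was the highest TTF array. The other 4 were Hoxc13 (difference -4.30), Hoxc10 (-3.58), Hoxa13 (-3.33) and Hoxa11 (-2.46). The 2 features of Hoxa13 gave -4.70 and -1.96. Hoxa13 and its group act in the hindmost trunk and in the hand and foot of the embryo.

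In the Hoxd cluster on chromosome 2, 6 members were counted higher and none lower. Hoxd1, Hoxd3 and Hoxd4 are anterior and Hoxd8 is central, and anterior and central genes of the other clusters were also counted higher. The cluster differed from the others in its posterior members Hoxd9 and Hoxd10, which were counted higher, whereas Hoxd11, Hoxd12 and Hoxd13 were not counted. Hoxd8 had a level of -0.05 in MEF, against -8.23, -8.61 and -8.42 in TTF, where it was under the limit on every array, so it was at least 136-fold higher. Hoxd4 had a level of 0.12 in MEF, against -7.75, -8.16 and -7.93 in TTF, also under the limit, and was at least 200-fold higher. Hoxd1, likewise under the limit in TTF, was at least 5.13-fold higher, and Hoxd9 and Hoxd10 differed by 4.28 and 3.26. The sixth, Hoxd3 (difference 2.17), rests on 1 of its 2 features: they differed by -0.37 and 4.72, and by its brightest feature alone the difference was -0.37. The other genes counted higher were Hoxa2 (4.10), Hoxc8 (3.32), Hoxb2 (2.97), Hoxb4 (2.53), Hoxa5 (2.41) and Hoxc6 (2.29).

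**Figure D2:**
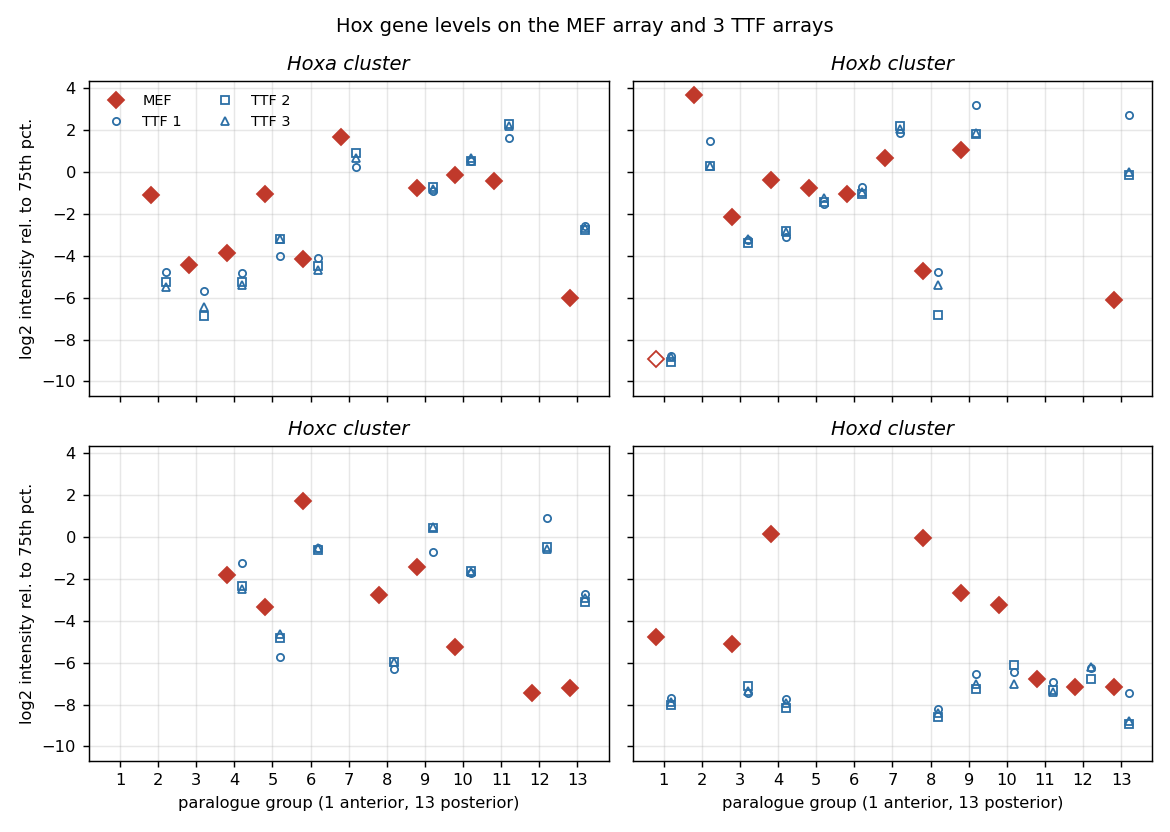
Levels of the Hox genes by cluster (panel) and paralogue group (horizontal axis), in log2 units with the array's own 75th percentile at 0, for the MEF array (red diamonds, open where under the limit of measurement) and the TTF arrays (blue symbols, drawn alike whether or not above the limit). MEF lies above TTF for Hoxd1 to Hoxd10 and below it for Hoxa13, Hoxb13, Hoxc12 and Hoxc13.

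Other transcription factors that mark body regions or organ primordia were also more often counted higher than the 4.4% of all measured genes. Of 59 measured members of a list of such factors, 19 (32.2%) were counted higher and 1 lower, with a median difference of 1.11. Foxd1, a forkhead factor of kidney stroma, had a level of 1.92 on the MEF array, against -4.18, -7.94 and -8.26 on the TTF arrays, a difference of 8.71. Lhx9, a homeobox factor of the developing gonad and limb, was at -1.06 in MEF and at -7.46, -8.61 and -8.69 in TTF, a difference of 7.20, with its 3 features between 3.86 and 9.78. Tbx1, a T-box factor of the pharyngeal region, was at 0.44 in MEF and at -3.83, -6.89 and -7.20 in TTF, a difference of 6.41.

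Limb factors were counted in both directions. Tbx5, which acts in the forelimb and heart, had a level of -1.67 in MEF, against -4.99, -6.07 and -7.21 in TTF, a difference of 4.42, although its 2 features gave 1.07 and 7.76. Tbx4, which acts in the hindlimb, was the list's 1 member counted lower, at -8.44 in MEF and at -5.57, -5.66 and -5.55 in TTF, a difference of -2.84. Its 2 features gave -5.18 and -0.50, and with an added offset the difference was -1.03 and Tbx4 was not counted. Pitx1, another hindlimb factor, was higher in MEF, at -4.82, against -8.41, -8.17 and -8.30 in TTF, where it was under the limit on every array, so it was at least 6.41-fold higher.

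Genes of urogenital and visceral mesoderm followed. Of 21 measured members, 12 (57.1%) were counted higher and 1 lower, with a median difference of 2.40. Their summed level, relative to the 75th percentile on a linear scale, was 42.5 in MEF and 1.93 to 4.94 in TTF. The 12 include Wt1, Rspo1 and Tcf21, which the mesothelium list or other lists also hold, so the counts of these lists are not independent. Gdnf, a growth factor of kidney and nerve, was the member counted lower, at -4.60 in MEF and at -1.65, -2.36 and -2.06 in TTF.

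Of the 12 largest differences upwards, 6 were genes of mesothelium, the epithelial lining of the body cavities and internal organs. Of 21 measured members of a mesothelium list, 17 (81.0%) were counted higher in MEF and 0 lower, with a median difference of 6.58. Upk3b, a uroplakin of mesothelium and bladder lining, had a level of 2.94 on the MEF array, against -8.91, -8.98 and -8.89 on the TTF arrays, all under the limit, and was at least 1392-fold higher. Wt1, the Wilms tumour transcription factor of mesothelium, kidney and gonad, was at 1.99 in MEF and at -8.67, -9.11 and -8.53 in TTF, a difference of 10.76 (TTF SD 0.30). All 10 Wt1 features were counted higher, and the gene was above the limit on 1 of the 3 TTF arrays. In RNA from a whole culture, fewer cells of a type and less RNA per cell cannot be told apart.

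Surface and secreted proteins of mesothelium behaved alike. Upk1b, a second uroplakin, had a level of 2.82 in MEF, against -8.17, -7.86 and -6.40 in TTF, a difference of 10.29. Msln, which encodes the surface protein mesothelin, was at 4.70 in MEF and at -4.63, -1.86 and -2.05 in TTF, a difference of 7.54. Rspo1, a secreted enhancer of Wnt signalling, was at 4.71 in MEF and at -3.54, -5.08 and -5.48 in TTF, a difference of 9.41. Crb2, a Crumbs polarity protein, was at 2.55 in MEF and at -5.85, -6.33 and -6.66 in TTF, a difference of 8.83. In each of these genes the MEF array stood more than 6 above the highest TTF array.

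The keratins of simple epithelium were part of the same group. Krt8 had a level of 4.40 on the MEF array, against -6.52, -4.75 and -5.17 on the TTF arrays, a difference of 9.88, and its partner Krt18 differed by 6.54. Krt19, another keratin of the list, did not follow. It was at 1.73 in MEF and at 1.74, 2.34 and 2.89 in TTF, a difference of -0.59. The remaining 3 members outside the counts were Tbx18 (0.29), Cldn15 (0.59) and Slpi (-0.58). Of the 9 mesothelium markers used to check cell types, 8 were counted higher, but all 9 are members of this list, so this is not a separate check. The list's summed level on a linear scale was 153 in MEF against 5.13 to 8.95 in TTF. The part of this cell type's RNA in the other differences was not tested.

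**Figure D3:**
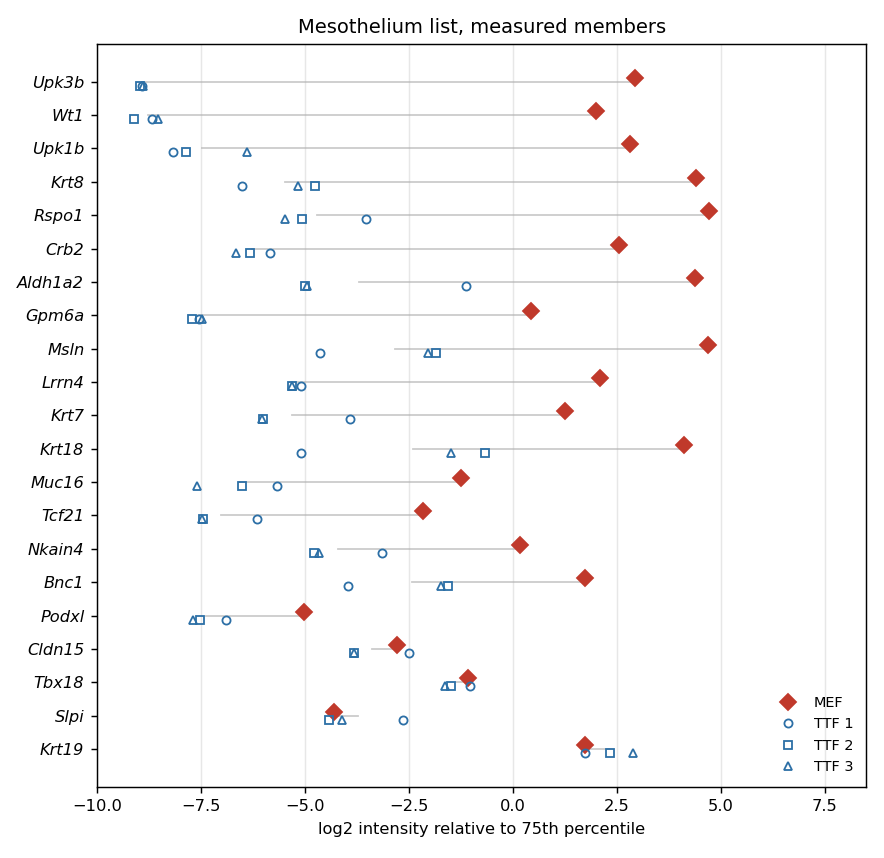
Levels of the 21 measured members of the mesothelium list on the MEF array (red diamonds) and the 3 TTF arrays (blue symbols), in log2 units with the array's own 75th percentile at 0, ordered by the difference; grey lines join the TTF mean to MEF. From Upk3b down to Podxl MEF lies above all TTF arrays by at least 2 on average, and the lowest 4 members overlap or lie close to TTF.

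Foxa2, a forkhead factor of endoderm and floor plate, was among the largest differences. Its level was 1.74 in MEF, against -8.72, -9.08 and -8.60 in TTF, a difference of 10.54, and it was above the limit on 1 of the 3 TTF arrays. All 10 of its features were counted higher. Its neighbour Pax1, a factor of the embryonic vertebral column, differed by 5.91. Of 14 genes of endoderm, liver and lung that were chosen after the value of Foxa2 was seen, Foxa2 included, 5 were counted higher. Of all measured genes 4.4% were. Liver genes did not all go 1 way. Alb, Afp and Hnf4a were between -7.32 and -6.90 on the MEF array, differing by -0.74, -0.66 and 0.05. Foxa3 was under the limit on all 4 arrays. Ahsg, also a liver gene, was under the limit on every TTF array and at least 17.2-fold higher in MEF. The other 4 counted higher were Ahsg (4.29), Reg3g (4.15), Cdh1 (2.48) and Foxa1 (2.41).

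Markers of other cell types that an embryo culture could hold were low but not absent. Of 20 measured blood and macrophage genes, 9 (45.0%) were counted higher and 0 lower, with a median difference of 1.63. With an added offset it was 4 higher. C1qc, a chain of complement C1q made by macrophages, had a level of -1.17 in MEF, against -7.15, -8.12 and -8.76 in TTF, a difference of 6.84. C1qa, which encodes its partner chain, differed by 5.90, and Tyrobp, a signalling adaptor of myeloid cells, by 4.67. The list's summed linear level was 3.81 in MEF and 1.12 to 1.53 in TTF, and 0 of its 4 measured erythroid genes were counted. The part of these cells in other differences was not tested.

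Of 15 measured endothelial genes, 4 (26.7%) were counted higher and 0 lower, while the defining gene Pecam1 stood at -6.85 in MEF and at -6.55, -7.53 and -7.86 in TTF. The transcription factor gene Erg differed by 4.75, and Emcn, which encodes endomucin, was at least 7.11-fold higher. Kdr, the main VEGF receptor gene, differed by 3.45, but only 10 of its 20 features were counted higher. Those 10 gave differences between 6.12 and 7.20, and the others between -1.06 and 0.94. The summed endothelial level was 0.85 in MEF and 0.27 to 2.23 in TTF, with TTF 1 the highest.

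Of 18 measured keratinocyte and epithelial genes, 4 (22.2%) were counted higher and 0 lower. Perp, a desmosomal protein and p53 target, had a level of 2.28 in MEF, against -3.42, -6.28 and -7.26 in TTF, a difference of 7.93. Krt14, a keratin of basal epidermis, differed by 4.68, and Krt15 by 3.31, whereas its basal partner Krt5 differed by 0.18 and Trp63, the factor that defines basal epidermis, by 0.29. Among skin fibroblast and hair follicle genes, 1 of 17 (5.9%) was counted higher and 3 (17.6%) lower, against 4.4% and 2.2% of all measured genes. Dkk2, a secreted Wnt inhibitor, had a level of -0.73 in MEF, against 2.44, 4.79 and 5.08 in TTF, a difference of -4.84. Ntn1, a guidance protein, differed by -2.72 and Fgf7, which stimulates keratinocytes, by -2.26. The member counted higher was Sox2, at least 10.2-fold, and the number counted higher was 2 without any 1 of the TTF arrays.

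Imprinted genes, expressed from 1 parental allele and many of them growth regulators of the fetus, were often higher. Of 37 measured, 12 (32.4%) were counted higher and 1 lower, with a median difference of 0.81. Igf2, the fetal growth factor expressed from the paternal allele, had a level of 5.80 on the MEF array, against -1.58, -5.81 and -5.70 on the TTF arrays, a difference of 10.16 (TTF SD 2.41). H19, a noncoding RNA from the maternal allele beside Igf2, was at 3.80 in MEF and at -3.67, -4.77 and -4.91 in TTF, a difference of 8.25. Both genes were highest in MEF by more than 7, and TTF 1 was the highest TTF array for each.

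By allele, 6 of 18 measured paternally expressed genes and 6 of 19 maternally expressed genes were counted higher. Nnat, a small membrane protein gene from the paternal allele, had a level of 0.10 in MEF, against -7.29, -6.29 and -6.73 in TTF, a difference of 6.87. Mest, Peg3 and Cdkn1c, chosen after their values were seen, differed by 6.40, 5.57 and 4.53; Cdkn1c encodes a cell cycle inhibitor from the maternal allele. The member counted lower was Dio3, a thyroid hormone deiodinase, at -2.55 in MEF and at 3.43, 0.16 and -0.29 in TTF, a difference of -3.66. Dlk1, another paternally expressed gene, was at 1.74 in MEF and at 0.01, 1.63 and 1.14 in TTF, a difference of 0.81 that did not reach the threshold.

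The insulin-like growth factor axis divided by role. Both ligands were counted higher, with Igf1 at 3.22 in MEF, against 0.42, -1.35 and -1.46 in TTF, a difference of 4.02. Of 8 binding protein genes, 3 were counted higher and 0 lower. Igfbp2 had a level of 4.55 in MEF, against 2.06, -1.59 and -1.26 in TTF, a difference of 4.81. Igfbp5 was at 1.41 in MEF and at 0.46, -4.78 and -5.22 in TTF, a difference of 4.59, so TTF 1 lay close to MEF. None of the 3 measured receptor genes was counted, and Igf2r, which clears IGF2, differed by 0.79.

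**Figure D4:**
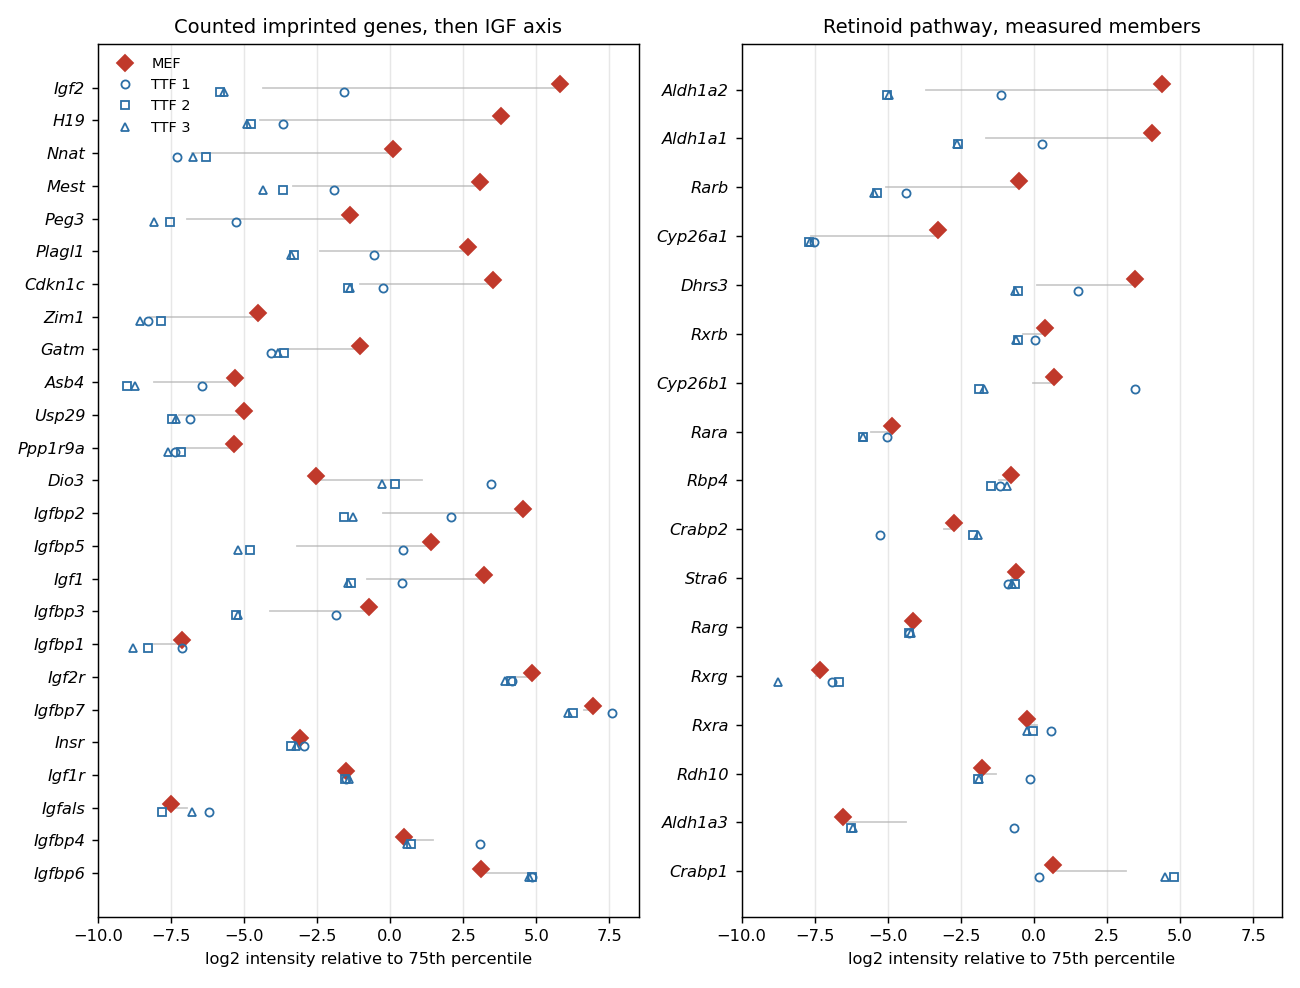
Levels on the MEF array (red diamonds) and the 3 TTF arrays (blue symbols), in log2 units with the array's own 75th percentile at 0, of the imprinted genes that were counted followed by the other IGF axis genes (left) and of the measured retinoid pathway genes (right); grey lines join the TTF mean to MEF. For Igf2, Igfbp5 and Aldh1a2 TTF 1 lies between MEF and the other TTF arrays.

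The retinoid pathway makes retinoic acid from vitamin A, senses it with nuclear receptors and breaks it down. Of 17 measured members, 5 (29.4%) were counted higher and 1 lower, with a median difference of 0.40. Aldh1a2, the main retinoic acid synthase of embryonic mesoderm, had a level of 4.38 in MEF, against -1.13, -5.01 and -4.95 in TTF, a difference of 8.08. Aldh1a1, a related synthase, was at 4.05 in MEF and at 0.27, -2.60 and -2.63 in TTF, a difference of 5.70. Rarb, a receptor gene that retinoic acid itself induces, was at -0.52 in MEF and at -4.36, -5.36 and -5.48 in TTF, a difference of 4.54. Cyp26a1, the degrading enzyme that is likewise induced, was under the limit on all TTF arrays and at least 18.1-fold higher, and Dhrs3, a retinal reductase, differed by 3.35; both were chosen after their values were seen.

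The single member counted lower was the synthase Aldh1a3, at -6.53 in MEF and at -0.67, -6.25 and -6.20 in TTF, a difference of -2.16. That difference came from TTF 1, and without it the value was -0.31. It was also smaller than 2 without scaling of the arrays (-1.91), with values under the limit raised to it (-1.43) and by the brightest feature (-0.61). Of the binding protein genes Crabp1 and Crabp2 neither was counted.

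Retinoic acid receptors bind spaced direct repeats, and the sequences before the start sites of Rarb and Cyp26a1 are shown because both hold such a repeat. The letters searched were GTTCA and AGTTCA with 5 bases of any kind between them, on both strands, in the 250 bases before each gene's start in the RefSeq promoter table (GRCm38.p6). They occurred in 4 of 13142 measured genes with a promoter in the table (0.0304%) and in 9 of all 27025 promoters (0.0333%). The 4 were Rarb and Cyp26a1, both counted higher, and Blvrb and Tnfsf13b, both counted lower and chosen after their values were seen. Only this spelling was searched, so the shares do not tell how common other spellings or spacings of the repeat are. It is the spelling that Rarb and Cyp26a1 hold, so its presence there is not a separate result. Rarb lies on the minus strand at chr14:16575477-16575726 and Cyp26a1 on the plus strand at chr19:37697558-37697807. The repeat, in capitals, spans bases 52 to 37 before the start of Rarb and bases 32 to 17 before that of Cyp26a1, where it is on the opposite strand.
Rarb: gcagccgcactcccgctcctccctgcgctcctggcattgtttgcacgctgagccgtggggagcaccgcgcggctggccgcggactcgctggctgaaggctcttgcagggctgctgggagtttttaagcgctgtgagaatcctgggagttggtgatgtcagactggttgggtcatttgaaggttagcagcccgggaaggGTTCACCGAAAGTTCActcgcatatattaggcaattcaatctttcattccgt
Cyp26a1: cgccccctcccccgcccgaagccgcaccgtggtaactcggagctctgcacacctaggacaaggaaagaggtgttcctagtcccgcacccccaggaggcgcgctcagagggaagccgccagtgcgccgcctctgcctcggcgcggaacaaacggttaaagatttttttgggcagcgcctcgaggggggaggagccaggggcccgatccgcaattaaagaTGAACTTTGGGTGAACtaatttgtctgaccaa

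Several signalling families had a larger share counted higher than the 4.4% of all measured genes. Of 42 measured genes of TGF-beta and BMP signalling, 10 (23.8%) were counted higher and 2 lower. The ligand genes led: Bmp4 had a level of 1.32 in MEF, against -4.33, -3.90 and -4.44 in TTF, a difference of 5.54 in which all 10 features were counted. Gdf6, a ligand of joint and skull development, was at 1.35 in MEF and at -5.24, -3.74 and -3.83 in TTF, a difference of 5.62. Chrdl2, a secreted BMP antagonist, differed by 5.32. Inhbb, which encodes an activin subunit, was at -2.08 in MEF and at 1.50, 0.75 and 1.24 in TTF, a difference of -3.24. The co-receptor gene Tgfbr3 differed by -3.15.

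Of 55 measured Wnt pathway genes, 10 (18.2%) were counted higher and 1 lower, and without TTF 1 it was 17 and 2. Wnt4, a ligand of kidney and gonad development, had a level of -0.50 in MEF, against -0.70, -6.47 and -7.04 in TTF, a difference of 4.24. TTF 1 therefore stood within 0.20 of MEF, although the gene was counted. Rspo3, which strengthens Wnt signals as Rspo1 does, was at -2.64 in MEF and at -5.97, -7.03 and -6.96 in TTF, a difference of 4.01.

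Among growth factors and their receptors, 11 of 45 (24.4%) were counted higher and 4 lower. Ntrk3, a neurotrophin receptor gene, differed by 4.92, Fgf9, a ligand made by mesothelium and other epithelia, by 4.24, and Ngfr by 4.06. Kitl, the ligand of the Kit receptor, differed by -2.10, and by -1.90 without TTF 1. Without scaling of the arrays 2 of the 45 were counted lower. Of 27 Hedgehog and Notch genes, 3 (11.1%) were counted higher and 1 (3.7%) lower, all of them in the Notch branch. The shares of all measured genes were 4.4% and 2.2%. Without TTF 1 it was 5 higher. The Notch ligand gene Jag1 differed by 3.04, the target genes Hey1 and Heyl by 3.46 and 3.37, and the ligand gene Dll1 by -2.48.

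Guidance cues and receptors showed 8 of 41 (19.5%) counted higher and 2 lower, with a median difference of 0.91. The Eph receptor genes Epha7 and Epha4 differed by 5.36 and 5.22, and the semaphorin gene Sema3d by 5.34. Epha4 had a level of 0.70 in MEF, against -0.89, -6.13 and -6.54 in TTF, so TTF 1 lay nearer to MEF than to the other TTF arrays. Sema7a, a membrane-anchored semaphorin, was the list's largest difference downwards, at -2.82 in MEF and at 0.96, 5.31 and 5.25 in TTF, a difference of -6.67.

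Matrix genes differed in single members more than as families. Of 36 measured collagen genes, 4 (11.1%) were counted higher and 1 lower, with a median difference of 0.11. Col8a2, a network-forming collagen chain, had a level of 3.46 in MEF, against -2.56, -3.31 and -3.53 in TTF, a difference of 6.60. Col10a1, made by maturing cartilage cells, differed by 5.53 and the fibrillar Col11a1 by 3.55. Col5a3, the member counted lower, differed by -2.01, and by -1.91 without TTF 1. Neither Col2a1 (1.36) nor Acan (0.15), the defining cartilage matrix genes, was counted.

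Small leucine-rich proteoglycans, which bind collagen fibrils, accounted for all 4 proteoglycan genes counted higher, 4 of 11 measured (36.4%). Of 12 large or cell-surface proteoglycan genes, 2 (16.7%) were counted lower. The shares of all measured genes were 4.4% and 2.2%. Lum, which encodes lumican, had a level of 2.55 in MEF, against -1.77, -4.55 and -4.80 in TTF, a difference of 6.26. Epyc and Ogn differed by 4.97 and 2.83. The lower genes were Vcan, which encodes versican (-2.31), and Gpc1, which encodes glypican 1 (-2.30). Vcan was not counted with values under the limit raised to it (-1.91), by its brightest feature (-1.996) or with an added offset (-1.50), which left 1 gene counted lower.

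Elastic fibre genes differed in both directions. Eln, which encodes elastin, had a level of 3.78 in MEF, against -2.003, -5.24 and -5.10 in TTF, a difference of 7.89. The microfibril genes Mfap4 and Mfap2 differed by 5.38 and 2.09, and Mfap2 by 1.64 without TTF 2 and 1.56 without TTF 3. Mfap5, another microfibril gene, was at -1.16 in MEF and at 3.66, 2.85 and 3.05 in TTF, a difference of -4.34, and Emilin2 differed by -3.96. Together 3 of 21 measured genes of elastic fibres and cross-linking (14.3%) were counted higher and 2 (9.5%) lower. Of all measured genes 4.4% were counted higher and 2.2% lower.

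Among 21 matricellular genes, 3 (14.3%) were counted higher and 2 (9.5%) lower, against 4.4% and 2.2% of all measured genes. Without TTF 1 it was 5 higher, and without TTF 2 it was 4 lower. Thbs4, a thrombospondin of tendon and muscle, was at -6.09 in MEF and at 4.73, 0.61 and 0.54 in TTF, a difference of -8.04. Smoc2, a calcium-binding matrix protein gene, differed by -2.76, whereas its relative Smoc1 was at 0.06 in MEF and at -3.99, -6.33 and -6.23 in TTF, a difference of 5.58. Nid2, a basement membrane gene, differed by 3.57 and Ccn3 by 3.57.

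Muscle filament genes were counted higher in part. Des, which encodes the muscle filament protein desmin, had a level of 2.30 in MEF, against -5.20, -6.27 and -6.25 in TTF, a difference of 8.20 in which all 10 features were counted. Myh11, the smooth muscle myosin heavy chain gene, differed by 4.68. In all, 3 of 16 measured smooth muscle genes (18.75%) were counted higher and 0 lower, against 4.4% and 2.2% of all measured genes. Of the 16, 14 lay above all TTF arrays, against 23.6% of all measured genes. Acta2, which encodes smooth muscle actin, was high on every array, at 6.49 in MEF and at 5.70, 5.99 and 6.17 in TTF, a difference of 0.53. Of 27 skeletal and cardiac muscle genes, 3 (11.1%) were counted higher, Tnnt2 (6.01), Tnni1 (5.01) and Nppb (2.81), and 1 (3.7%) lower, Chrna1 (-2.66). The 2 features of Tnnt2 gave 3.16 and 8.86. Chrna1 was at -7.33 in MEF and at -7.13, -3.50 and -3.37 in TTF, so TTF 1 lay close to MEF. Chrna1 lost its count without scaling of the arrays, under quantile normalization, with an added offset (-1.38) and by its brightest feature. The skeletal muscle factors Myod1 and Myog differed by 0.34 and 1.81.

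Cadherin and integrin genes had 7 of 28 (25.0%) counted higher and 1 lower, and 2 lower without TTF 1. The integrin chain genes Itga8, Itga11 and Itga3 differed by 3.94, 3.41 and 2.76. The 3 features of Itga3 gave differences between 0.17 and 4.62, and 2 of them were counted. Itgb7, a chain of leukocyte integrins, was at -3.80 in MEF and at -0.62, 1.34 and 1.35 in TTF, a difference of -4.49.

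Matrix proteases and inhibitors were counted lower more often than the 2.2% of all measured genes. Their share counted higher was near the 4.4% of all measured genes. Of 33 measured proteases and inhibitors, 2 (6.06%) were counted higher and 5 (15.2%) lower. Without TTF 1 it was 7 higher, without scaling of the arrays 4 higher, and with an added offset 1 higher. Mmp10, a stromelysin that cleaves proteoglycans and other matrix proteins, had a level of -2.49 on the MEF array, against -0.45, 3.03 and 3.48 on the TTF arrays, a difference of -4.51. Mmp3, its close relative in the same gene cluster on chromosome 9, was at 1.02 in MEF and at 2.84, 6.03 and 6.38 in TTF, a difference of -4.07, and was chosen after its values were seen. For both genes TTF 1 lay nearer to MEF than to TTF 2 and TTF 3. The membrane proteases Adam33 and Adam8 differed by -4.22 and -4.19. Counted higher were Adamts9 (5.02), which cleaves versican, and Mmp16 (2.80), a membrane-bound metalloprotease.

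The AP-1 factors, dimers of Fos and Jun proteins, bind TGANTCA, and promoters of metalloprotease genes are known for this site. These letters, which read the same on both strands, stood in the 250 bases before the start of 43 of 262 genes counted lower with a promoter in the RefSeq table (16.4%). The share was 44 of 525 (8.38%) for genes counted higher, 856 of 13142 (6.51%) for all measured genes and 2113 of 27025 (7.82%) for all promoters. Of 20 measured protease and inhibitor genes with a promoter, 6 held it, among them Mmp3, Mmp10, Mmp12 and Mmp13. The stretches before Mmp3 (chr9:7445572-7445821) and Mmp10 (chr9:7502092-7502341), both on the plus strand of GRCm38.p6, are shown as genes of 1 cluster that were both lower and hold the same site. The capitals mark it, at bases 46 to 40 before the start of Mmp3 and 63 to 57 before that of Mmp10.
Mmp3: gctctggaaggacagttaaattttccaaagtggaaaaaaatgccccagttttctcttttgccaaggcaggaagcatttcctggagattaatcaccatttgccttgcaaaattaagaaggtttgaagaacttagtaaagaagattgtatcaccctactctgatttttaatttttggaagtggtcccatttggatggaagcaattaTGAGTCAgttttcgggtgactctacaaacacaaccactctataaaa
Mmp10: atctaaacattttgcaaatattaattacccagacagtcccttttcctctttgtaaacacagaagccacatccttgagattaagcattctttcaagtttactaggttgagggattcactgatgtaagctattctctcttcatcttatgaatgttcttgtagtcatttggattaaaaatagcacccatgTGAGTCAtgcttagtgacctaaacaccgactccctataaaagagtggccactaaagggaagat

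Interferon-stimulated genes, which act against viruses, were counted in 1 direction. Of 31 measured members, 0 were counted higher and 7 (22.6%) lower, with a median difference of -0.86, and 18 lay below all TTF arrays (30.6% of all measured genes did). Oas1a, an antiviral oligoadenylate synthetase, had a level of -6.17 in MEF, against -3.19, -1.57 and -1.66 in TTF, a difference of -4.03, and signal from near-identical Oas1 copies on its feature cannot be separated. Ifit3 was at -1.54 in MEF and at 0.80, 1.32 and 1.28 in TTF, a difference of -2.67. Oas2, under the limit on the MEF array, was at least 3.42-fold lower. Its 2 features gave -4.5 and -0.78, and 1 of them was counted. Oas2 was not counted with values under the limit raised to it (-1.98) or with an added offset (-0.97). Without scaling of the arrays, which moved the median of all genes to 0.22, 3 of the 31 were counted lower. With values under the limit raised to it 4 were, and with an added offset 3.

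Antigen presentation genes followed in lesser degree. Of 25 measured, 0 were counted higher and 2 (8.0%) lower, with a median difference of -0.65; without TTF 1 it was 1. H2-Ab1, a class II chain gene, was at -6.05 in MEF and at -2.08, -3.89 and -3.44 in TTF, a difference of -2.91. The proteasome gene Psmb9 differed by -2.30, and by -1.66 without TTF 1. Of 11 class I genes 9 lay below all TTF arrays and 0 were counted.

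Chemokine genes went both ways. Of 34 chemokines, cytokines and their receptors, 6 (17.6%) were counted higher and 6 (17.6%) lower, and without TTF 1 it was 3 lower. Of all measured genes 4.4% were counted higher and 2.2% lower. Ccl8, which attracts monocytes and T cells, had a level of -3.84 in MEF, against 5.97, 1.38 and 1.94 in TTF, a difference of -6.93. Cxcl5, which attracts neutrophils, differed by -3.34 and Ccl7 by -2.94, and by -1.64 and -1.88 without TTF 1. Those counted higher included Cxcl15 (4.95), Ccl20 (4.38) and the cytokine Il6, which was at 0.69 in MEF and at -0.94, -3.71 and -3.52 in TTF, a difference of 3.41. Among 11 complement genes, 2 (18.2%) were counted higher and 1 (9.1%) lower. Higher were Clu (4.48) and the regulator Cd55 (2.32), and lower was Cfb (-4.27), a protease of the alternative pathway. The 4 features of Cd55 gave differences between -0.36 and 3.96, and 3 of them were counted. Cd55 was not counted without TTF 3 (1.88), with values under the limit raised to it (1.87) or with an added offset (1.38). Each of these settings left 1 complement gene counted higher.

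The largest differences downwards held genes of diverse function. Cilp, a matrix protein of cartilage and other connective tissue, was under the limit on the MEF array at -9.40 and at 4.42, 0.72 and 0.66 in TTF, and was at least 863-fold lower. Prl2c3, a proliferin of the prolactin family, had a level of -6.16 in MEF, against 1.90, 2.71 and 3.46 in TTF, a difference of -8.86. Prl2c5 differed by -8.71, and the proliferin genes are near copies whose signals cannot be separated here. Cyp2f2, a cytochrome P450 best known from lung airway cells, differed by -7.56. Serpinb2, an inhibitor of plasminogen activators, was at -7.18 in MEF and at -1.76, 1.01 and 1.34 in TTF, a difference of -7.37. Ptpn22, a phosphatase of lymphocytes, and Plxdc1, a membrane protein, differed by -6.66 and -6.29. Fras1, a basement membrane protein of embryonic epithelia, stood at the other end, at 0.43 in MEF and at -5.77, -9.10 and -8.87 in TTF, a difference of 8.34.

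Embryonic and pluripotency genes were mixed. Of 19 measured, 4 (21.1%) were counted higher and 1 lower, with a median difference of 0.06. Igf2bp1, an oncofetal RNA-binding protein gene, had a level of 0.53 in MEF, against -2.49, -2.66 and -3.13 in TTF, a difference of 3.29. Nanog, a pluripotency factor, was at -6.23 in MEF and under the limit in TTF, so it was at least 2.35-fold higher. Dnmt3l, a cofactor of DNA methylation in germ cells, differed by -3.22. With values under the limit raised to it, 2 of the 19 were counted higher.

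No gene of the proliferation or lipid synthesis lists was counted. Over all measured genes 6.6% were counted in either direction, so few counts fall to lists of this size and their absence is no result about these pathways. Of 36 measured cell cycle genes, 0 were counted, 27 lay within the TTF range, and the median difference was 0.10. Over all measured genes 23.6% lay above all TTF arrays and 30.6% below. Mki67, a marker of dividing cells, was at 2.53 in MEF and at 2.21, 2.75 and 2.05 in TTF, a difference of 0.19. The largest absolute differences in that list were those of Plk1 (0.61) and Rrm2 (-0.59). Of 23 sterol and fatty acid synthesis genes 0 were counted, although 12 lay below all TTF arrays (30.6% of all measured genes did). Their median difference was -0.21. Their summed linear level was 133 in MEF and 146 to 173 in TTF. The largest absolute differences were those of Scd1, a desaturase (-1.20), and Fdft1, which encodes squalene synthase (-0.82). Of 20 p53 targets and Ink4 locus genes 1 was counted, Perp.

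The small lists of other lineages held few counted genes, though some had larger shares than the 4.4% higher and 2.2% lower of all measured genes. Of 12 adipocyte genes, 0 were counted higher and 1 (8.3%) lower, Ebf1 (-2.42), a factor of adipocyte and B cell development. In that list 3 were counted higher without TTF 1, and 1 without TTF 2 or TTF 3. Of 17 cartilage, bone and tendon genes, 2 (11.8%) were counted higher, Col10a1 and Matn3 (3.89), and 0 lower. Of 17 genes of neural crest, glia and neurons, 2 (11.8%) were counted higher, Ngfr and Map2 (3.40), and 0 lower. Without TTF 1 it was 1 lower.

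**Figure D5:**
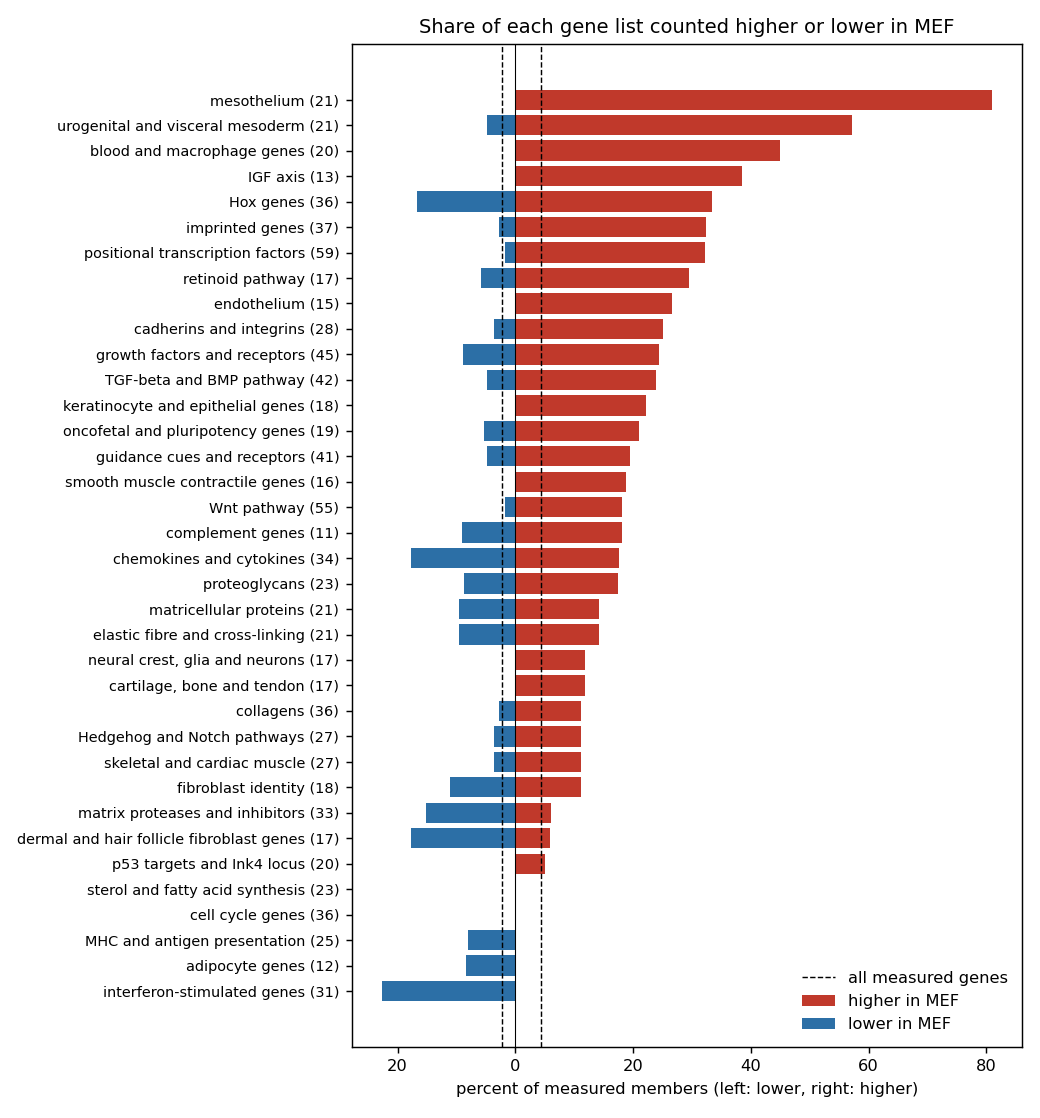
Percent of the measured members of each gene list (number in brackets) counted higher in MEF (red, to the right) or lower (blue, to the left), with dashed lines at the shares of all measured genes, 4.4% and 2.2%. Mesothelium has the highest share counted higher (81.0%) and interferon-stimulated genes the highest share counted lower (22.6%).

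Genes counted the same way often lay side by side. Of the 722 genes counted higher, 162 (22.4%) had an adjacent measured gene that was also counted higher, whereas 8.45% of all 16417 measured genes with a position had such a neighbour. Of the 361 counted lower, 72 (19.9%) had a neighbour counted lower, against 4.27% of all. The longest run upwards was 7 genes of the Hoxd cluster, Hoxd10, Hoxd9, Hoxd8, Hoxd3os1, Hoxd3, Hoxd4 and Hoxd1. Other runs chosen after their values were seen were the imprinted Zim1, Peg3 and Usp29 on chromosome 7 and, downwards, Mmp12, Mmp3, Mmp1a and Mmp10 on chromosome 9, Hoxc13, Hoxc12 and Hoxc10 on chromosome 15, and Ccl2, Ccl7 and Ccl11 on chromosome 11. Neighbours that are copies of each other, such as those of the Oas1 and Ly6 families, may share signal on their probes, and the part of this in the counts was not tested.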

How the data were processed

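RNA of 1 MEF and 3 TTF cultures was measured on 1 one-colour Agilent array each, with Cy3 label per the labels. The values deposited by the authors are linear intensities per feature, made with Agilent Feature Extraction 10.5.1.1 per the submitters' processing notes; background handling is not given in the sources used here. Array medians and 75th percentiles differed between arrays, so the log2 of each intensity was taken relative to the 75th percentile of its own array (an intensity of 2230 for MEF and 1720 to 2030 for TTF). Of 45018 features, 33653 had 1 gene symbol in the platform's probe table, 56 several and 11309 none; only the first kind was named, and 33517 matched the RefSeq gene table. They gave 18966 genes, 8330 with several features, which were averaged; 689 genes on X or Y were left out. The local floor was the lowest value in a sliding window of features along the table, the limit of measurement 3 times it, and a gene was above the limit if any of its features was. Where every array of the dimmer side was under the limit, the fold is a lower bound, for which each dim array was set at its limit or, if higher, at the gene's measured level.

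No test was made, since MEF has 1 array; the number of arrays limits the precision, and the sources used here name no batch, slide or scan date. TTF 2 and TTF 3 were close but differed in their values and in features above the limit, so they were kept as 2 samples, with their mean as 1 sample among the alternatives. The 36 gene lists, their roles and the comparison itself were chosen with earlier results of these data known. The text names the 12 largest differences in each direction among counted genes with a final symbol, up to 3 counted members of each list in each direction (or the 2 largest differences where none was counted), every counted Hox gene and a set of fibroblast, imprinted, mesothelial, limb and proliferation markers. The counting was tested on simulated data with differences planted only in bright genes and noise smaller than the spread among the TTF arrays. That test does not cover dim genes or an array set apart as TTF 1 was. Promoter sequences and start sites are RefSeq's (GRCm38.p6), matched by symbol for 13142 of 16419 measured genes. Computation used Python 3.11.15, pandas 2.3.3, NumPy 2.4.6 and, for the figures, matplotlib 3.10.9.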

Additional observations from a re-analysis of the deposited data

Results flagged for a closer look

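Among features without a gene symbol in the probe table more were lower than higher in MEF, the opposite balance to the named genes. By the same counting rule, applied to each feature, 176 of 7700 measured features without a symbol were higher in MEF (2.29%) and 486 were lower (6.31%). The shares of measured genes were 4.4% and 2.2%, and 1444 features with a symbol were higher and 662 lower. Which transcripts they detect and on which chromosome these lie was not analysed here, so X- and Y-linked features could not be left out of these counts.

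Among the other cultures, 48 groups of 4 arrays (the iHep and the hepatocyte arrays for 24 genes with the largest differences) were checked for an array far from the rest, and chance flags about 1 in 20 such groups. The level of Crb2 on iHep replicate 3 was -6.57, against -7.72, -7.56 and -7.72 on the other iHep arrays.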

How the results depend on the processing

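No paired analysis was possible because MEF has 1 array without a replicate number and no test was made. The counts of 722 genes higher and 361 lower moved by more than 1.5 times under 4 kinds of setting. Adding 50 to each intensity before log2 gave 389 and 187. A minimum difference of 1 gave 1534 and 1212, and of 3 gave 417 and 129. Counting each feature on its own, features without a symbol left out, gave 1444 and 662. The distance from the nearest TTF array, chosen after seeing the data, gave 467 and 189. Other settings moved them by less than 1.5 times. Leaving out a TTF array gave 680 to 924 higher and 331 to 454 lower. Without scaling they were 856 and 280, and with TTF 2 and TTF 3 as 1 sample 683 and 328. Of the named differences, 1 turned sign: Hoxd3, at -0.37 by its brightest feature. The counts of higher members of the Hox, mesothelium, urogenital, positional factor, imprinted and IGF lists stayed within 1.5 times under every scaling and left-out array. None of the 24 genes with the largest differences lost its count under any scaling, floor, offset, feature rule or left-out array. An added offset shrinks the differences of dim genes by construction, and Hoxd1, Pitx1, Sox2 and Nanog were then among those under 2.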

Other observations

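The genes that set MEF and TTF apart also varied over the other 9 arrays of the study, given here as levels with no comparison. Hoxb13 was at -0.12 to 1.49 on the 4 iHep arrays, at 1.06 in the mixed culture and at -8.32 to -5.97 on the 4 hepatocyte arrays. Wt1, near the floor in TTF, was at -2.35 to -0.19 on the iHep arrays, at -0.91 in the mixed culture and at -5.51 to 1.61 on the hepatocyte arrays. Upk3b was at -8.82 to -7.49 on the iHep arrays, at -8.29 in the mixed culture and at -7.43 to 0.75 on the hepatocyte arrays. Foxa2 was at -1.32 to -0.43 on the iHep arrays, at -3.57 in the mixed culture and at 2.07 to 3.17 on the hepatocyte arrays. Hoxd8 was at -8.84 to -6.95 on the iHep arrays, at -7.65 in the mixed culture and at -8.88 to -4.84 on the hepatocyte arrays.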
